A study of Mus musculus with 49 samples.

Results

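Expression of 10 genes that mark oligodendrocyte precursor cells and their differentiation was measured by RNA sequencing of neocortex from 49 mice. The genes were chosen by symbol (Pdgfra, Cspg4, Olig1, Olig2, Sox10, Gpr17, Enpp6, Bcas1, Tnr and Myrf), and all 10 were found among the 45252 rows of the count table. All 10 passed the filter on low counts, as did 18220 genes in all, and no member had fewer than 77 counts in any mouse. All mice were C57BL/6J x C3H/HeJ of mixed background and 28.5 weeks old. The 32 bigenic rNLS8 mice were heterozygous for NEFH-tTA, a transactivator driven by a neurofilament promoter that is active in neurons, and for tetO-hTDP43∆NLS, a human TDP-43 that lacks its nuclear localization signal. The 17 monogenic mice of ctrl-PBS carried the tetO-hTDP43∆NLS allele without NEFH-tTA, so the transactivator and the expression of the transgene cannot be told apart in any comparison with them. Doxycycline, which keeps the transgene silent, had been withdrawn from the chow of all animals at 25.5 weeks, 3 weeks before the tissue was taken. From 8 weeks of age the mice received 5 injections before withdrawal and 1 after it. TDP-10+12 (10 bigenic mice) received peptides 10 and 12 of TDP-43 combined, and TDP-15 (12 bigenic mice) received peptide 15. Peptide 15 holds a phosphorylation site that the paper calls disease-specific. Peptides were given as ovalbumin conjugates, at a total dose of 40 µg. CpG oligonucleotide and Alhydrogel adjuvant were part of the regimen. TDP-PBS (10 bigenic mice) and ctrl-PBS received PBS in place of the conjugates. Peptide and ovalbumin carrier therefore cannot be told apart in comparisons with these groups. No immunized monogenic mice were analysed here, and each mouse gave 1 library.

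Oligodendrocyte precursor cells divide in the adult cortex and are kept in the cycle by platelet-derived growth factor acting on PDGFRα. When they leave the cycle they pass through a short committed stage, marked by the receptor GPR17, and become newly formed oligodendrocytes that either die or start to myelinate. The transcription factors OLIG1, OLIG2 and SOX10 are present through the lineage, and MYRF switches on the myelin genes at its end. Pdgfra and Cspg4 are also known in fibroblasts and in pericytes, and Tnr in some neurons, which matters for RNA from whole tissue.

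Total counts lay between 17775738 and 21033608 per mouse. A level of 3 counts, taken as the floor with counting error only considered, corresponded to 0.139 to 0.165 CPM. CPM are the counts scaled by TMM to a common library size. Endogenous Tardbp, which falls when the transgene is on, was lower in each bigenic group than in ctrl-PBS (log2 fold change between -0.30 and -0.24). Myelin genes, neuronal, astrocyte and microglial markers were all detected, and the 4 T cell markers summed to at most 1.19 CPM. Markers of the olfactory bulb, which adjoins the cortex, summed to over 35 CPM in 7 mice, 2 of ctrl-PBS, 2 of TDP-10+12 and 3 of TDP-15. Markers of the striatum, another neighbouring tissue, summed to 220 to 1173 CPM in ctrl-PBS and 428 to 1354 in TDP-PBS. That sum was 405 to 1098 CPM in TDP-10+12 and 329 to 807 in TDP-15. The labels name no batch. In bulk tissue, fewer cells of a type and less RNA per cell cannot be told apart.

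In the PBS-treated animals, the bigenic genotype came with a difference from the monogenic one in 1 of the 10 genes. Tnr, which encodes the matrix glycoprotein tenascin-R made by the oligodendrocyte lineage and by neurons of perineuronal nets, exceeded its ctrl-PBS level by 13.8% in TDP-PBS. The other 9 genes did not pass the test, with log2 fold changes from -0.13 to 0.25. The share of members called, 10.0%, stood beside 43.5% of all 18220 genes tested in the same comparison (edgeR's quasi-likelihood test, Benjamini-Hochberg adjusted p under 0.05 over all genes). The median log2 fold change of the members was 0.10 and that of all genes was -0.00039. The same counts were 4 of 10 members beside 40.8% of genes (20.8% higher, 20.0% lower) in TDP-10+12 and 2 of 10 beside 46.9% (23.6% higher, 23.2% lower) in TDP-15, both against the same 17 ctrl-PBS mice.

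**Figure D1:**
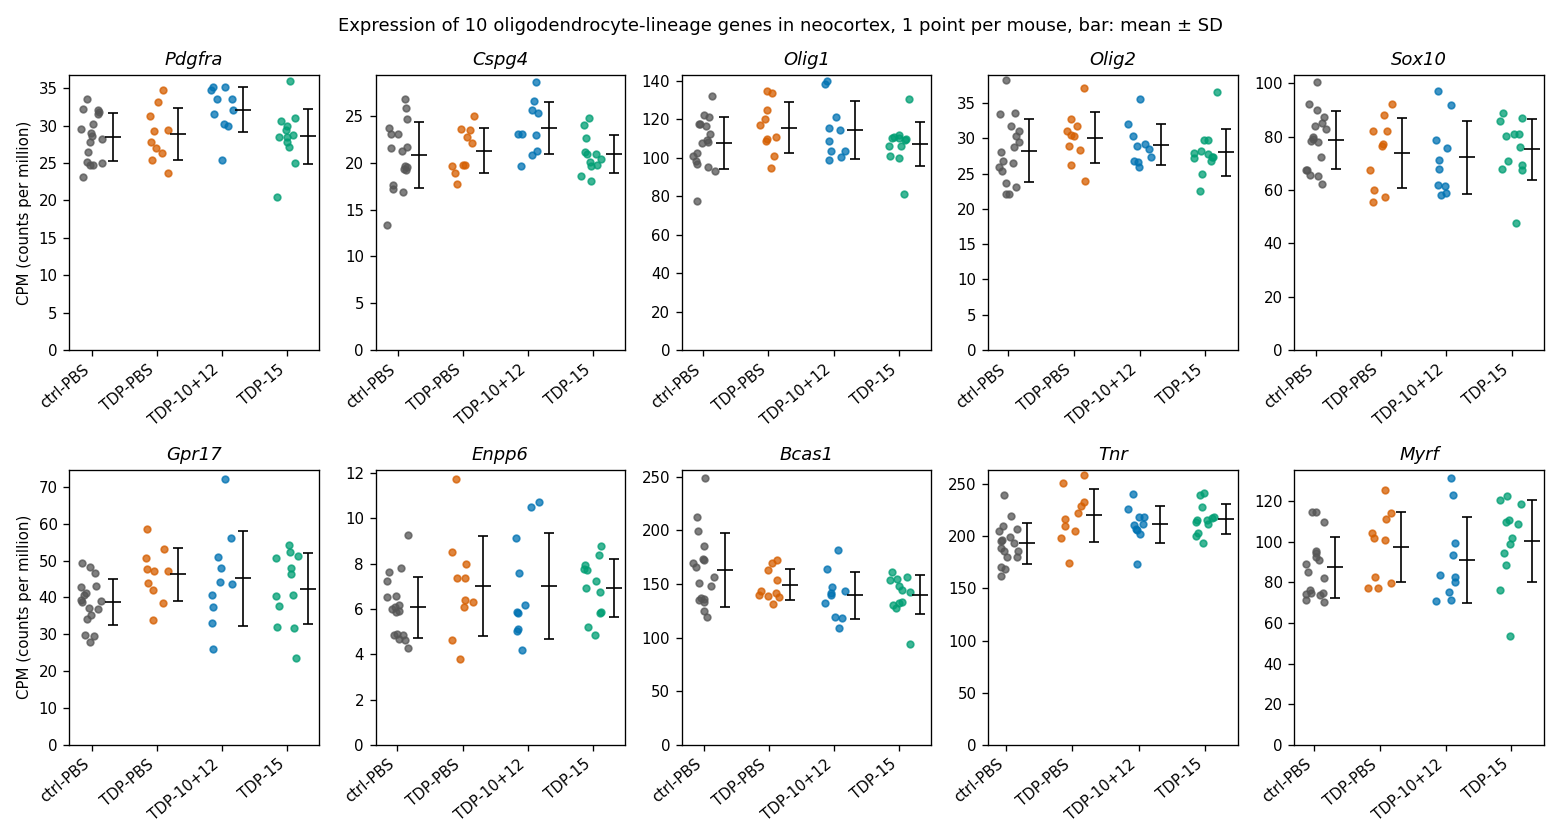
CPM (y axis, from 0) of the 10 genes in each of 49 mice (points) by group (x axis), with the mean and SD of each group as black bars. Every bigenic group overlaps ctrl-PBS for every gene, and Tnr (median 220 CPM in TDP-PBS, 193 in ctrl-PBS) is shifted within that overlap.

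**Figure D2:**
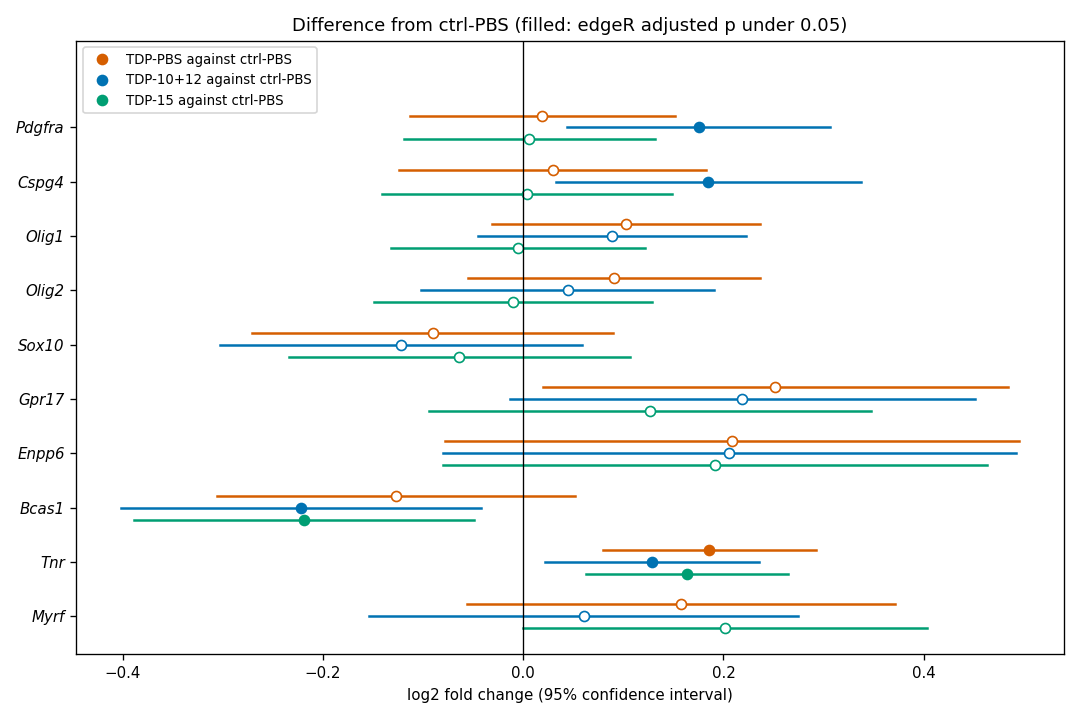
Log2 fold change (x axis) of each gene in the 3 bigenic groups against ctrl-PBS, with 95% confidence intervals as lines and filled points where the adjusted p was under 0.05. Tnr is filled in all 3 groups, Bcas1 in TDP-10+12 and TDP-15, and Pdgfra and Cspg4 in TDP-10+12 alone.

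Promoter windows from the RefSeq annotation of GRCm38.p6, 300 bases around the listed start, are shown for the 3 genes that were higher in a bigenic group. No measurement here bears on what binds them. Each reads 5′ to 3′ on the plus strand. Capitals mark ACAAAG or ACAATG on either strand, letters that SOX factors are known to bind.
Tnr, chr1:159523519-159523818: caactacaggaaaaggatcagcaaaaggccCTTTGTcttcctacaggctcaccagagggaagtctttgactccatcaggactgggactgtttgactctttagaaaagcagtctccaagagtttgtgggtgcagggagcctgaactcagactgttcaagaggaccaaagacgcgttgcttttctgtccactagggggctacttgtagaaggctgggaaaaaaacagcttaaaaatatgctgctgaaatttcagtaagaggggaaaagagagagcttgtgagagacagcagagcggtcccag
Pdgfra, chr5:75152001-75152300: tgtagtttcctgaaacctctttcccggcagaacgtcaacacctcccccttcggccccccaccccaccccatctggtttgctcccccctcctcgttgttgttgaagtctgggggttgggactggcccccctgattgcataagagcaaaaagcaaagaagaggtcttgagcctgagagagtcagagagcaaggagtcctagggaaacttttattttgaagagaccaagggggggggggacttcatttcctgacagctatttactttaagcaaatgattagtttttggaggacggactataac
Cspg4, chr9:56864854-56865153: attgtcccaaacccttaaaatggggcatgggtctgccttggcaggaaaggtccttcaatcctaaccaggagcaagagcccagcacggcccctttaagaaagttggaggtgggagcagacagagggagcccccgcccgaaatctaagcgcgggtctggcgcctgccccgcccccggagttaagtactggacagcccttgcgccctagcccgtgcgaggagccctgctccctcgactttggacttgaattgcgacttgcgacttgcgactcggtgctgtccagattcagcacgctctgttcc
The Tnr window held 1 such match, 220 bases before the start listed for that window, and the windows of Pdgfra and Cspg4 held none. For Tnr and Pdgfra this listed start lies downstream of the gene start printed below. The whole Pdgfra window lies inside the printed span of the gene. Of 32851 promoter windows of this length, 28.6% held one of both motifs, so a single match is common. The E-box CAGCTG, the letters bound by OLIG2 and many related factors and found in 16.3% of all windows, was in none of the 3. Windows were matched for 5 of the 10 genes (these 3, Olig2 and Enpp6).

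Tnr (tenascin-R, chromosome 1, 159523729 to 159931729, plus strand) was the member called in all 3 bigenic groups. Mice of ctrl-PBS ranged from 162 to 239 CPM with a median of 193, those of TDP-PBS from 174 to 259 with a median of 220, those of TDP-10+12 from 173 to 240 with a median of 211 and those of TDP-15 from 194 to 242 with a median of 215. All 12 TDP-15 mice, 9 of 10 TDP-PBS mice and 9 of 10 TDP-10+12 mice lay above the ctrl-PBS median, while only 4 bigenic mice exceeded the highest of ctrl-PBS. The log2 fold change was 0.19 in TDP-PBS (SE 0.053, adjusted p = 0.00336 by edgeR), 0.13 in TDP-10+12 (SE 0.053, adjusted p = 0.0468) and 0.16 in TDP-15 (SE 0.050, adjusted p = 0.00605). The median absolute log2 fold change among called genes was 0.33 in TDP-PBS, so the change of Tnr was small for a called gene. The call in TDP-10+12 was the least stable of these. It held in 7 of 9 other settings of the fit (adjusted p by edgeR, DESeq2 or limma up to 0.0844) and in 1 of 5 added after seeing the data (up to 0.127, without the mice with olfactory bulb markers).

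Tnr is a long transcript, with 12867 exonic bases, and its level followed that of other long transcripts from mouse to mouse. The median log2 CPM of transcripts over 8000 exonic bases minus that of transcripts under 2000 correlated with Tnr across the 49 mice, after removal of group means (r = 0.70, permutation p = 1e-05, the smallest 100000 resamples give, adjusted p = 5e-05 over 30 relations, rho = 0.63, r = 0.69 without the 2 mice farthest from the median). The medians of this index were close, 3.50 in ctrl-PBS, 3.53 in TDP-PBS, 3.45 in TDP-10+12 and 3.42 in TDP-15. With the index as a covariate the log2 fold changes of Tnr were 0.20, 0.16 and 0.20 in the same order of bigenic groups, and all 3 were called by edgeR. Interneuron markers moved as well, with 4 of 6 lower (Gad1, Pvalb, Sst and Vip) and Lhx6 higher in each bigenic group, where 20.0% to 23.2% of all genes were called lower. Their summed CPM was 768 to 965 in ctrl-PBS, 635 to 924 in TDP-PBS, 629 to 1037 in TDP-10+12 and 609 to 798 in TDP-15, none of the markers was at 0, and their part in the result was not tested.

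Of the receptors and surface proteins of precursor cells, Pdgfra and Cspg4 were higher in TDP-10+12. Pdgfra, which encodes the PDGF-A receptor (chromosome 5, 75151322 to 75198206, plus strand), ranged from 23.2 to 33.5 CPM around a median of 28.5 in ctrl-PBS. The median was 28.6 in TDP-PBS (23.6 to 34.7), 32.8 in TDP-10+12 (25.4 to 35.2) and 28.6 in TDP-15 (20.4 to 36.0). Of the TDP-10+12 mice, 5 of 10 lay above every ctrl-PBS mouse, as did 1 mouse in each of the other bigenic groups. The log2 fold change was 0.18 in TDP-10+12 (95% interval 0.04 to 0.31, edgeR adjusted p = 0.0272), against 0.02 in TDP-PBS (-0.11 to 0.15) and 0.01 in TDP-15 (-0.12 to 0.13).

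Cspg4, which encodes the proteoglycan NG2 (chromosome 9, 56865104 to 56899870, plus strand), had its highest median in TDP-10+12 as well. Its median was 21.3 CPM in ctrl-PBS (13.4 to 26.8), 20.97 in TDP-PBS (17.7 to 25.0), 23.1 in TDP-10+12 (19.7 to 28.6) and 20.7 in TDP-15 (18.1 to 24.7). Only 1 mouse, of TDP-10+12, exceeded every ctrl-PBS mouse. The log2 fold change in TDP-10+12 was 0.19 (95% interval 0.03 to 0.34, edgeR adjusted p = 0.0450), and it was 0.03 in TDP-PBS and 0.0038 in TDP-15. The calls of Cspg4, Tnr and Bcas1 in TDP-10+12 were lost in 11, 10 and 16 of 27 fits that each left out 1 mouse, with adjusted p up to 0.0889, 0.0771 and 0.124. That of Cspg4 held in 7 of 9 other settings and in 0 of 5 added after seeing the data.

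The difference between TDP-10+12 and TDP-PBS itself did not pass for either gene. It was 0.16 for Pdgfra (95% interval 0.01 to 0.30, edgeR adjusted p = 0.934) and 0.16 for Cspg4 (-0.02 to 0.33, adjusted p = 0.953). No gene of the 18220 was called by edgeR in this comparison (0.0%), with 953 at an unadjusted p under 0.05. Some markers of fibroblasts, which can also carry Pdgfra, were higher in the same group. In TDP-10+12, 3 of 7 were called (Dcn, Lum and Col1a2) and 4 were not, beside 20.8% of all genes called higher, and the sum was 67.5 to 110 CPM, against 40.2 to 82.8 in ctrl-PBS, 55.2 to 130 in TDP-PBS and 53.5 to 138 in TDP-15, with no marker at 0. With the log2 of that sum as a covariate, the log2 fold changes in TDP-10+12 were 0.15 for Pdgfra (edgeR adjusted p = 0.0954) and 0.10 for Cspg4 (0.352). In TDP-PBS and TDP-15, 2 of 7 fibroblast markers were called higher, near the share of all genes (21.9% and 23.6%). Of pericyte markers, 0 of 7 were higher and 1 was lower (Rgs5) in TDP-10+12. Their sum in TDP-10+12 was 149 to 185 CPM, against 142 to 203 in ctrl-PBS.

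The factors of the whole lineage did not pass in any comparison. Olig1 had a median of 108 CPM in ctrl-PBS (77.5 to 132), 114 in TDP-PBS (94.6 to 135), 112 in TDP-10+12 (98.8 to 140) and 110 in TDP-15 (81.1 to 131). Olig2, its neighbour on chromosome 16, had medians of 28.0, 30.4, 28.7 and 27.6 CPM in the same order, within a range of 22.1 to 38.2 in ctrl-PBS. All groups overlapped, and the intervals of their log2 fold changes in TDP-PBS were -0.03 to 0.24 and -0.05 to 0.24.

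Sox10, which drives myelin genes together with MYRF, had medians of 79.1 CPM in ctrl-PBS, 76.9 in TDP-PBS, 69.6 in TDP-10+12 and 78.2 in TDP-15. It reached below the lowest ctrl-PBS mouse (62.4 CPM) in 3, 4 and 1 mice of the bigenic groups. Its log2 fold changes were -0.09, -0.12 and -0.06 with adjusted p of 0.439, 0.289 and 0.568 by edgeR.

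Members of the committed and newly formed stages varied more widely than in ctrl-PBS in only some bigenic groups. For Gpr17 the SD was 28.5% of the mean in TDP-10+12 and 22.9% in TDP-15, against 16.1% in ctrl-PBS and 15.4% in TDP-PBS. Gpr17, the receptor of committed precursors, had a median of 39.0 CPM in ctrl-PBS (28.0 to 49.4), 47.2 in TDP-PBS (34.0 to 58.6), 43.8 in TDP-10+12 (26.0 to 72.2) and 43.5 in TDP-15 (23.6 to 54.3). The highest ctrl-PBS mouse was exceeded by 3, 3 and 4 mice of the bigenic groups, which otherwise overlapped it. The log2 fold change in TDP-PBS was 0.25 (95% interval 0.02 to 0.48), the largest of any member in that comparison, but its adjusted p was 0.0726 by edgeR, and it passed where the 2 groups were fitted alone (0.26, adjusted p = 0.0132). Values in TDP-10+12 and TDP-15 were 0.22 and 0.13, with adjusted p of 0.127 and 0.362.

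Enpp6, a choline phosphodiesterase known in newly forming oligodendrocytes, was the member with the fewest counts, 77 to 244 per mouse in TDP-PBS. Its medians were 5.98 CPM in ctrl-PBS, 6.88 in TDP-PBS, 6.02 in TDP-10+12 and 7.09 in TDP-15, with a range of 4.26 to 9.28 in ctrl-PBS. The log2 fold changes were 0.21, 0.21 and 0.19, none called, and intervals reached from -0.08 to 0.50 in TDP-PBS.

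Bcas1, known in early myelinating and in mature oligodendrocytes (chromosome 2, 170343973 to 170427911, minus strand), was the member that was lower. Its median was 156 CPM in ctrl-PBS (119 to 248.7), 142 in TDP-PBS (131 to 173), 140 in TDP-10+12 (109 to 182) and 144 in TDP-15 (93.7 to 161). The 4 highest mice of all belonged to ctrl-PBS, and only 2 of 10 TDP-10+12 and 2 of 12 TDP-15 mice lay above the ctrl-PBS median. Bcas1 fell by 0.22 on the log2 scale in TDP-10+12 (SE 0.089, edgeR adjusted p = 0.0419) and in TDP-15 (SE 0.084, adjusted p = 0.0290). In TDP-PBS the value was -0.13 (95% interval -0.31 to 0.05, adjusted p = 0.258), and the differences of TDP-10+12 and TDP-15 from TDP-PBS (-0.10 and -0.09) did not pass, with edgeR adjusted p of 0.981 and above. The call in TDP-15 was lost in 4 of 29 fits that each left out 1 mouse (adjusted p up to 0.0869). That in TDP-10+12 was lost in 16 of 27 such fits, and it held in 6 of 9 other settings (adjusted p up to 0.0766) and in 2 of 5 added after seeing the data. With the fibroblast sum as a covariate the value there was -0.14 (edgeR adjusted p = 0.261), and in TDP-15 it was -0.19 (0.0511). The striatum sum as a covariate gave -0.21 in TDP-10+12 (edgeR adjusted p = 0.0508) and -0.19 in TDP-15 (0.0671). Of 6 striatum markers, 2 were called lower in TDP-15, beside 23.2% of all genes, and 0 in the other bigenic groups.

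Myrf, the regulator of myelin gene transcription (chromosome 19, 10208271 to 10240777, minus strand), pointed the other way. Its medians were 85.3 CPM in ctrl-PBS (70.4 to 115), 101.3 in TDP-PBS (77.3 to 126), 83.0 in TDP-10+12 (70.8 to 132) and 105 in TDP-15 (53.8 to 123). In TDP-15, 10 of 12 mice lay above the ctrl-PBS median, yet the group also held the lowest mouse of all. The log2 fold change there was 0.20 (95% interval -0.00034 to 0.40, edgeR adjusted p = 0.0955), and it was 0.16 in TDP-PBS and 0.06 in TDP-10+12.

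Between the bigenic groups, sexes and genotypes by sex, no member was called. Log2 differences of members lay between -0.10 and 0.16 for TDP-10+12 against TDP-PBS, between -0.13 and 0.04 for TDP-15 against TDP-PBS and between -0.14 and 0.18 for TDP-10+12 against TDP-15. In these 3 comparisons edgeR called 0.0% of genes, and 1, 0 and 2 members had an unadjusted p under 0.05. DESeq2 and limma-voom called no member either. Between 25 females and 24 males, differences ran from -0.03 to 0.10, beside 0.0933% of all genes called, and the genotype by sex interaction in the 27 PBS-treated mice had adjusted p of 0.799 and above.

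Compared per exonic length, levels in ctrl-PBS followed the order Olig1 (49.8 ± 6.16 SD RPKM, the CPM per kilobase of exon, n = 17), Bcas1 (43.1 ± 9.05), Sox10 (25.8 ± 3.53), Tnr (15.0 ± 1.52), Olig2 (11.2 ± 1.78), Myrf (10.2 ± 1.74), Gpr17 (7.48 ± 1.21), Pdgfra (2.84 ± 0.317), Cspg4 (1.75 ± 0.296) and Enpp6 (0.947 ± 0.211). Ranges of neighbours in this order overlapped except between Sox10 and Tnr, Gpr17 and Pdgfra, and Pdgfra and Cspg4. Thus the 2 surface markers of precursors were measured at a lower level per length than the factors of the whole lineage.

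Several members moved together from mouse to mouse. Deviations of log2 CPM from group means were correlated over 49 mice for all 45 pairs, and 18 pairs passed (permutation test within groups, 100000 resamples, adjusted p under 0.05), 15 of them positive. The strongest were Olig1 with Olig2 (r = 0.78, rho = 0.73, permutation p = 1e-05, adjusted p = 5.62e-05, r = 0.76 without the 2 farthest mice), Sox10 with Myrf (r = 0.76, rho = 0.70, 0.74 without them) and Bcas1 with Myrf (r = 0.75, rho = 0.72, 0.69 without them). The permutation p of the last 2 pairs was the same, the smallest that the resamples give.

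Pdgfra was correlated with Cspg4 (r = 0.39, rho = 0.42, permutation p = 0.00553, adjusted p = 0.0156, 0.40 without the 2 farthest mice) and inversely with Myrf (r = -0.43, rho = -0.41, p = 0.00391, adjusted p = 0.0117, -0.45 without them) and Bcas1 (r = -0.38, rho = -0.36, p = 0.00829, adjusted p = 0.0219, -0.39 without them). Tnr was inversely correlated with Olig1 (r = -0.37, rho = -0.37, permutation p = 0.0104, adjusted p = 0.0260), which fell to -0.27 without the 2 farthest mice. Gpr17 passed with Olig2 alone (r = 0.44, rho = 0.51, permutation p = 0.00087, adjusted p = 0.00356, 0.40 without the 2 farthest mice). In the 17 ctrl-PBS mice alone 6 pairs passed and in the 32 bigenic mice alone 13, all of them positive, so the inverse relations passed only over all mice.

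**Figure D3:**
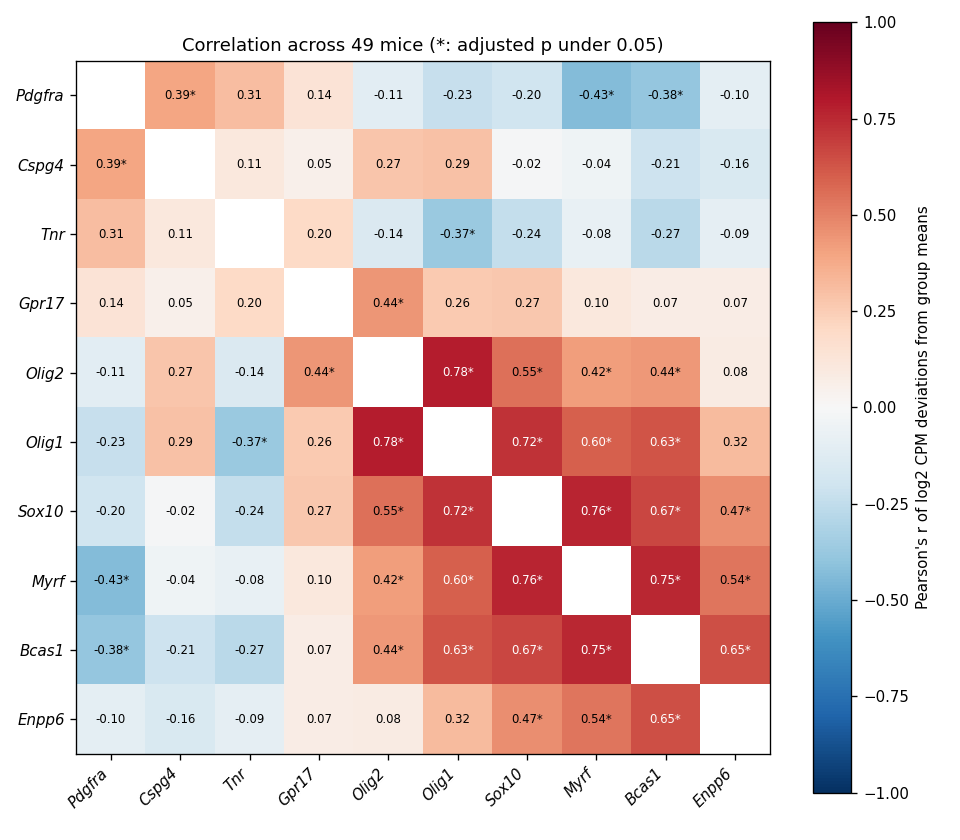
Pearson's r of log2 CPM deviations from group means over 49 mice for the 45 pairs of genes (colour, from -1 to 1), with an asterisk where the adjusted permutation p was under 0.05. The highest values are those of Olig1 with Olig2 (0.78), Sox10 with Myrf (0.76) and Bcas1 with Myrf (0.75), and the lowest is that of Pdgfra with Myrf (-0.43).

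The genes closest to each member by the same measure were named by rank and are given as a description. Bcas1 was closest to Mbp (r = 0.90) and Mobp (0.85), Myrf to Cldn11 (0.86) and Mag (0.83), and Sox10 to Fa2h (0.79) and Cldn11 (0.78), all of them genes of compact or mature myelin. Cnp, another gene of myelin, was among those nearest to Enpp6 (0.74). Olig1 was closest to Olig2 (0.78) and Cd82 (0.78), and Olig2 to Olig1 and Cryab (0.67). Pdgfra was closest to Ptprz1 (0.76), a precursor and astrocyte phosphatase, and Map2 (0.71). Tnr was closest to Akap6 (0.81) and Map1b (0.81), which are known in neurons. Gpr17 was closest to Plekhm1 (0.63) and Tpcn1 (0.62), and Cspg4 to Dhtkd1 (0.66) and Scarf2 (0.60).

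The 15 mature myelin genes summed to 3705 to 6786 CPM in ctrl-PBS, 4243 to 6038 in TDP-PBS, 3642 to 6503 in TDP-10+12 and 3241 to 5731 in TDP-15. Across mice this sum was correlated with Bcas1 (r = 0.91, rho = 0.90, permutation p = 1e-05, adjusted p = 5e-05, r = 0.89 without the 2 farthest mice) and with Myrf (r = 0.82, rho = 0.78, 0.76 without them). It was inversely correlated with Pdgfra (r = -0.39, rho = -0.42, permutation p = 0.00616, adjusted p = 0.0197, -0.45 without them). At a given level of myelin genes, Bcas1 lay lower and Myrf higher in bigenic mice. With the log2 sum as a covariate, a fit chosen after the data had been seen, Bcas1 was called lower by edgeR in TDP-PBS (-0.11, adjusted p = 0.0217), TDP-10+12 (-0.10, 0.0412) and TDP-15 (-0.22, 2.28e-06). In the same fit Myrf was called higher in TDP-PBS (0.16, adjusted p = 0.0317), TDP-10+12 (0.17, 0.0265) and TDP-15 (0.17, 0.0133).

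**Figure D4:**
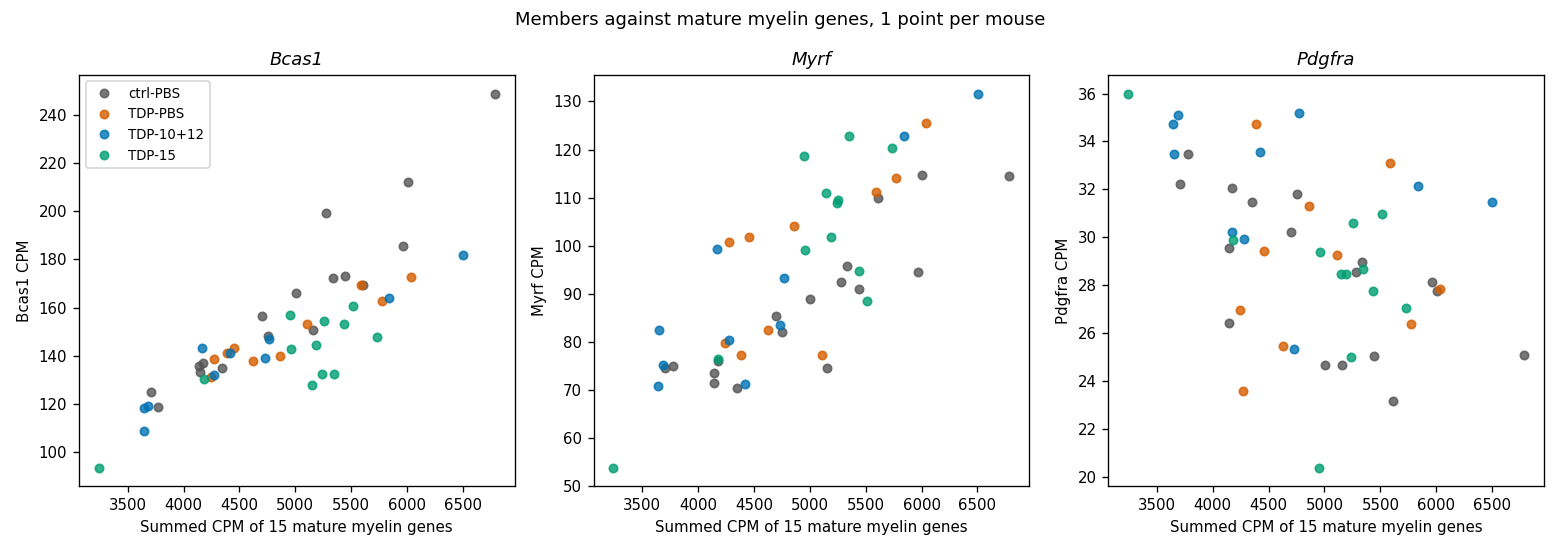
CPM of Bcas1, Myrf and Pdgfra (y axes, not starting at 0) against the summed CPM of 15 mature myelin genes (x axis), 1 point per mouse, coloured by group. Bcas1 and Myrf rise with the sum and Pdgfra falls, with ctrl-PBS points mostly above the bigenic ones for Bcas1 and below them for Myrf.

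Among other genes of the lineage, the list of the committed and newly formed stages held most genes that rose. Of its 12 genes 7 were higher and 0 lower in each comparison with ctrl-PBS (9630013A20Rik, Zfp488, Bmp4, Cnksr3, Itpr2, Sirt2 and Fyn), with list medians of 0.28, 0.26 and 0.21 on the log2 scale. Of all genes, 21.9%, 20.8% and 23.6% were called higher. The list's summed CPM was 316 to 371 in ctrl-PBS and 381 to 461 in TDP-PBS, without overlap, and it was 352 to 419 in TDP-10+12 and 332 to 457 in TDP-15. Most of that sum, and of its difference, came from Sirt2 (mean 156 CPM in ctrl-PBS and 195 in TDP-PBS) and Fyn (116 and 127). In which cells Sirt2, Fyn and Itpr2 were higher was not tested. Of the members, Gpr17 and Enpp6 did not pass in any comparison with ctrl-PBS, and Bcas1 pointed down in each.

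The noncoding RNA 9630013A20Rik, known from newly formed oligodendrocytes, rose by 1.80 on the log2 scale in TDP-PBS (edgeR adjusted p = 7.2e-10), from 0.256 to 1.51 CPM in ctrl-PBS to 0.939 to 3.55. The values were 1.46 and 1.56 in TDP-10+12 and TDP-15. Zfp488, a zinc finger protein that cooperates with OLIG2, was 0.892 to 2.76 CPM in ctrl-PBS and 1.86 to 3.69 in TDP-PBS (log2 fold change 0.62, adjusted p = 0.00016 by edgeR). Bmp4, a ligand made by committed precursors, was 1.43 to 4.07 and 2.29 to 7.12 CPM in these groups (0.54, edgeR adjusted p = 0.0043). Sirt2, a deacetylase of myelin sheaths, was 138 to 177 CPM in ctrl-PBS and 177 to 223 in TDP-PBS, where 9 of 10 mice exceeded all of ctrl-PBS.

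Of 14 other precursor genes, 2 were higher and 4 lower in TDP-PBS, 4 higher and 0 lower in TDP-10+12, and 3 higher and 6 lower in TDP-15. The shares of all genes were 21.9% higher and 21.6% lower, 20.8% and 20.0%, and 23.6% and 23.2%, so several of these counts lay near the background. Lhfpl3 (log2 fold change 0.33 in TDP-PBS, 0.42 in TDP-10+12 and 0.36 in TDP-15) and Sox6 (0.16, 0.22 and 0.13) were higher in each. Matn4 (-0.27, edgeR adjusted p = 0.021), Emid1 (-0.27), Cacng4 (-0.23) and Ptprz1 (-0.19) fell in TDP-PBS. In TDP-10+12, Vcan and Neu4 were called higher as well (0.23 and 0.34), and Vcan also in TDP-15 (0.22). The median of the list in TDP-10+12 was only 0.05. Matn4, Emid1, Cacng4 and Ptprz1 had negative values in TDP-10+12 (-0.18, -0.13, -0.12 and -0.09), none of them called.

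Of the ligands of the PDGF receptors, Pdgfa, the ligand of PDGFRα on precursors, was lower in all 3 comparisons. It was 26.8 to 38.9 CPM in ctrl-PBS, 22.7 to 30.6 in TDP-PBS, 18.01 to 32.3 in TDP-10+12 and 20.1 to 28.6 in TDP-15, with 7, 7 and 10 mice under the lowest of ctrl-PBS. The log2 fold changes were -0.32, -0.37 and -0.44 (edgeR adjusted p = 0.00026, 3.3e-05 and 4.5e-07). Among the others, Pdgfc was called lower (-0.23, edgeR adjusted p = 0.0245) and Pdgfd higher (0.34, adjusted p = 0.0346) in TDP-15 alone, and Pdgfb and the receptor gene Pdgfrb were not called in any group.

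Of 16 regulators of differentiation, 7 were lower and 1 higher in TDP-PBS, 7 lower and 0 higher in TDP-10+12, and 8 lower and 1 higher in TDP-15, beside 21.6%, 20.0% and 23.2% of all genes called lower. The list was built largely from inhibitors and from genes of the Notch, BMP and Wnt pathways. That such genes are common among those called follows in part from this choice. Hes1, Notch1 and Jag1, also of the Notch pathway, were not called in TDP-PBS. Those that fell there included Hes5, a target of Notch (-0.67, edgeR adjusted p = 0.00012). They also included Id2 (-0.43) and Id4 (-0.33), which hold back differentiation downstream of BMP. Axin2, a Wnt target (-0.30), and Lingo1 and Gpr37, which restrain myelination, fell as well. The other one was Sox8, a relative of Sox10 that acts for the lineage (-0.17 in TDP-PBS, edgeR adjusted p = 0.0378, -0.28 in TDP-10+12 and -0.33 in TDP-15). The regulator called higher was Zeb2, which counters BMP signalling and is also known in microglia (0.21 in TDP-PBS, edgeR adjusted p = 0.00517, and 0.27 in TDP-15). Id2, Id4, Hes5 and Axin2 are also known in astrocytes, whose markers moved unevenly (Gfap higher and Slc1a2 and Gja1 lower of 6 in each bigenic group). The astrocyte sum was 2264 to 2928 CPM in ctrl-PBS and 2017 to 2910 in TDP-PBS. It was 2165 to 3293 in TDP-10+12 and 2182 to 3079 in TDP-15. None of the 6 astrocyte markers was at 0, and their part was not tested. In which cells Lingo1 and Gpr37 fell was not tested either, and 4 of 6 neuronal markers were also called lower in TDP-PBS.

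Of the mature myelin genes a smaller share passed than of all genes (43.5%, 40.8% and 46.9%). In TDP-PBS 1 of 15 was higher (Cldn11, a tight junction protein of myelin, 0.47, edgeR adjusted p = 0.00098) and 1 lower (Ugt8a, which makes galactosylceramide, -0.37, adjusted p = 0.0051). In TDP-10+12 0 were higher and 2 lower, and in TDP-15 1 was higher and 3 lower. The log2 fold changes of Mbp were -0.04, -0.16 and -0.01, none of which passed.

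**Figure D5:**
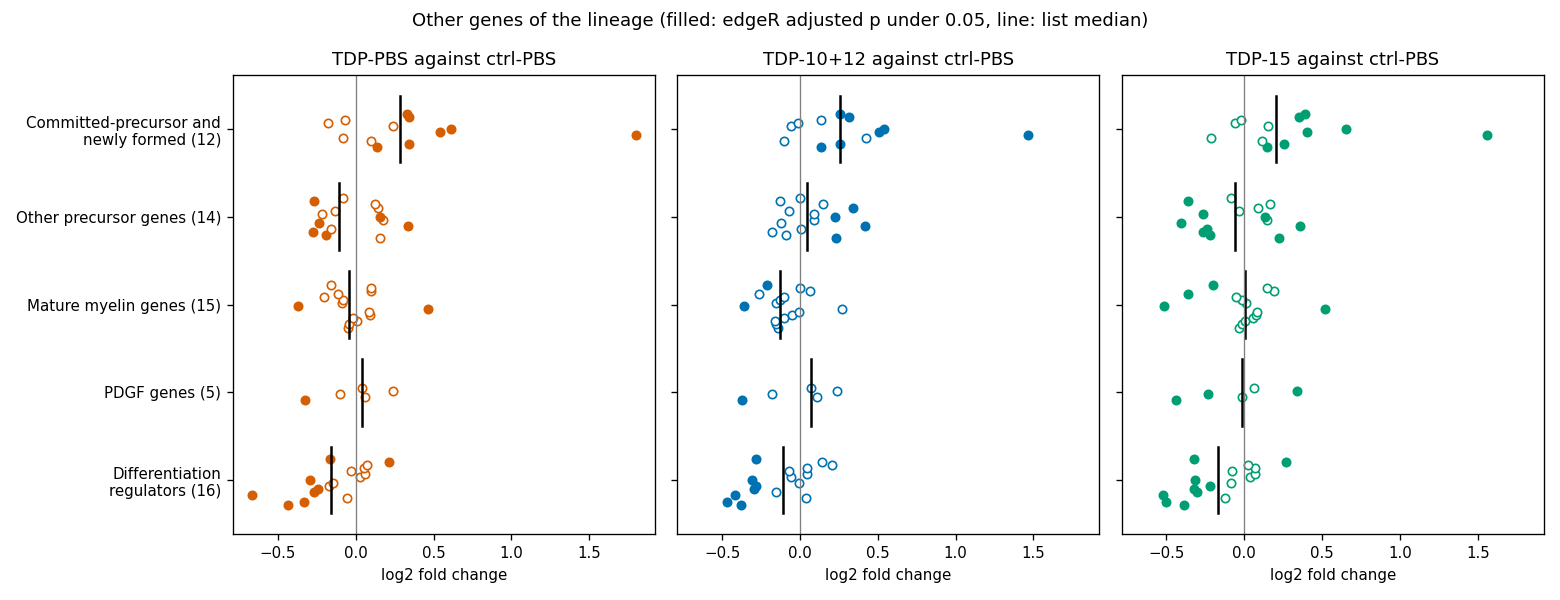
Log2 fold change against ctrl-PBS (x axis) of the genes of 5 lists (rows, with the number of genes) in the 3 bigenic groups (panels), filled where the adjusted p was under 0.05, with the list median as a black line. The median of the committed-precursor list lies to the right of 0 in each panel (0.28, 0.26 and 0.21), with some of its genes to the left, and that of the regulators lies to the left (-0.16, -0.11 and -0.17).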

How the data were processed

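Neocortical RNA (about 30 mg of tissue and 200 ng of RNA per mouse) was sequenced as 100 bp paired ends. The authors deposited whole-number counts per gene and mouse. The submitters' processing notes name HISAT, HISAT2, Bowtie, Bowtie2 and RSEM without roles, and build mm10. RSEM gives estimates, so the counts may have been rounded. Annotation and strand setting are not given in the sources used here, so reads of antisense or overlapping genes (up to 11.7% of the exonic bases of Bcas1, 7.26% of Olig1, and 4.55% or less of Pdgfra, Gpr17 and Tnr) cannot be told apart.

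Genes were kept by edgeR's filterByExpr with the groups given (minimum count 10, minimum total 15). All 49 mice in 4 groups entered a quasi-likelihood fit with TMM factors (edgeR 4.0.16, R 4.3.3), two-sided, threshold 0.05 after Benjamini-Hochberg adjustment. The sex test added sex, and the interaction used the 27 PBS mice. Intervals are 95%. Levels per length used GENCODE vM21 exons, and positions RefSeq GRCm38.p6. Correlations used log2 CPM (prior count 2). Members, lists and tests were chosen with earlier results of these data known. Named were all members, up to 3 genes per list and direction with the largest change in TDP-PBS, and the 2 nearest genes per member. Vcan, Neu4, Cnksr3, Itpr2, Sirt2, Fyn, Ptprz1, Axin2, Lingo1, Gpr37, Sox8, Hes1, Notch1, Jag1, Pdgfb, Pdgfc, Pdgfd, Pdgfrb and Mbp were added from the lists after their values were seen. A gene near Enpp6 is not reported here. Alternatives used DESeq2 1.42.0, limma 3.58.1 and sva 3.50.0. Steps were tested on simulated data. Labels name each library by a separate animal. Figures were drawn with matplotlib 3.10.9.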

Additional observations from a re-analysis of the deposited data

How the results depend on the processing

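Tnr was called higher in TDP-PBS and in TDP-15 under each of 9 other settings (edgeR, DESeq2 or limma) and 5 added after seeing the data, with adjusted p up to 0.0075 and 0.0146 in the 9, and whichever mouse was left out. Pdgfra in TDP-10+12 was called under the same 9 settings and whichever mouse was left out, and lost with the myelin sum (0.14, adjusted p = 0.058) or the fibroblast sum (0.15, adjusted p = 0.0954) as a covariate. The number of members called in TDP-PBS, 1 in the reported fit, was 2 with only the 2 groups compared and 3 with the myelin covariate. In TDP-10+12 it was 4, against 2 with 2 surrogate variables or only the 2 groups compared, and 1 with no filter on low counts, the fibroblast or striatum sum as a covariate, or without the 7 mice with olfactory bulb markers. In TDP-15 it was 2, against 1 with the striatum covariate, where Bcas1 was lost (-0.19, edgeR adjusted p = 0.0671). With the fibroblast covariate the number was 2 again, but with other genes. There Bcas1 was lost (-0.19, edgeR adjusted p = 0.0511) and Myrf gained (0.24, edgeR adjusted p = 0.0417). Leaving out each mouse gave 1 to 2, 1 to 4 and 1 to 2 members in the 3 comparisons with ctrl-PBS. The number of correlated pairs, 18, was 6 in the 17 ctrl-PBS mice alone.

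The call of Cspg4 in TDP-10+12 was lost without any of ctrl-PBS mice 38, 41, 137, 221, 232, 318 and 343 or TDP-10+12 mice 51, 242, 277 and 313 (adjusted p up to 0.0889). That of Tnr was lost without ctrl-PBS mice 110, 131, 137, 181, 221, 318, 322 and 343 or TDP-10+12 mice 47 and 301 (up to 0.0771), and that of Bcas1 without any of 16 mice, ctrl-PBS 38, 41, 84, 99, 110, 146, 322 and 343 and TDP-10+12 47, 200, 242, 266, 277, 301, 313 and 337 (up to 0.124). Bcas1 in TDP-15 was lost without ctrl-PBS mice 41, 99 or 110 or TDP-15 mouse 184 (up to 0.0869). Gpr17 was called in TDP-PBS without TDP-PBS mice 26 or 217 or ctrl-PBS mice 71 or 99 (down to 0.0304) and in TDP-10+12 without mouse 301 (0.0293), and Myrf in TDP-15 without ctrl-PBS mouse 99 or TDP-15 mouse 184 (down to 0.0186). All p are from edgeR.

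Signs turned only for values that were not called. With limma-voom weights Pdgfra in TDP-PBS was -0.010 and Cspg4 in TDP-15 was -0.013. With the fibroblast covariate Cspg4 was -0.0028 in TDP-PBS and -0.015 in TDP-15, and Olig2 was -0.020 in TDP-10+12. With the striatum covariate Cspg4 in TDP-15 was -0.023. Against TDP-PBS, Bcas1 in TDP-10+12 was 0.0079 with the myelin covariate, and Tnr in TDP-15 was 0.0073 with the index of long transcripts. Of 24 further values between bigenic groups, 10 changed sign under some alternative. The cause was not tested. No paired analysis was possible because the labels give each mouse its own number and no number is shared between groups.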

Other observations

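TDP-15 mouse 184 stood at opposite ends for the members. It had the lowest CPM of the 12 TDP-15 mice for Olig1 (81.1), Olig2 (22.5), Sox10 (47.5), Bcas1 (93.7) and Myrf (53.8), and the highest for Pdgfra (36.0), Cspg4 (24.7) and Tnr (242). Its mature myelin sum, 3241 CPM, was the lowest of all 49 mice.

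With the myelin sum as a covariate, a fit chosen after seeing the data, Olig1 and Enpp6 were also called higher in TDP-10+12 by edgeR (0.14, adjusted p = 0.0324, and 0.31, adjusted p = 0.0146), and with the fibroblast sum Enpp6 was (0.39, adjusted p = 0.0297). Cspg4 was correlated with the fibroblast sum across mice (r = 0.38, rho = 0.46, permutation p = 0.00656, adjusted p = 0.0197, 0.44 without the 2 farthest mice), while Enpp6 was inversely correlated (r = -0.40, rho = -0.37, permutation p = 0.00576, adjusted p = 0.0197), which weakened to -0.28 without the 2 farthest mice. For Pdgfra the value was 0.09 (rho = 0.25, permutation p = 0.56, adjusted p = 0.646), and 0.35 without the 2 farthest mice. Microglial markers rose in each bigenic group (5 of 6 higher, with P2ry12 lower in TDP-10+12 and TDP-15), and 4 of 6 neuronal markers were lower (Snap25, Syt1, Nrgn and Stmn2), beside 20.8% to 23.6% of all genes called higher and 20.0% to 23.2% called lower in these comparisons.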
